A study of Mus musculus with 23 samples.

Results

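Retinas of heterozygous P23H knock-in mice given DNA nanoparticles with the genomic form of human rhodopsin (human gRHO) were compared with retinas of P23H knock-in mice that received no injection. The samples were chosen by their labels and titles: 3 human gRHO libraries and 5 uninjected libraries, 8 of the 23 libraries of the series. All were retinal RNA of strain P23H+/- KI at postnatal day 90, sequenced as small RNA, so every mouse compared carried 1 P23H allele beside 1 wild-type allele. Titles that differ only in a final L or R were read as the left and right retina of 1 mouse, which gave 2 human gRHO mice (mouse 1 with both retinas, mouse 2 with the left) and 3 uninjected mice (mouse 1 and mouse 3 with both, mouse 2 with the left). This reading is an inference from the titles. The p-values measure only the spread between such mouse sums, taken over all 15 mice of the 5 groups in the fit, which may be partly technical. All human gRHO titles share a leading number, as do all uninjected titles, so treatment and what that number stands for cannot be told apart. The sources used here do not give the dose, the route or the age at injection. P23H mice given saline (2 retinas of 1 mouse) or nanoparticles with genomic mouse rhodopsin (mouse gRho, 11 retinas of 7 mice) and wild-type C57B mice (2 retinas, counted as 2 mice) entered the same fit.

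MicroRNAs (miRNAs) are short RNAs that guide Argonaute proteins to messenger RNAs, mainly through the seed, bases 2 to 8 from the 5′ end. In P23H rhodopsin a proline near the amino end is replaced by histidine, the protein misfolds in rod photoreceptors, and the rods degenerate over time. The clustered miR-183, miR-96 and miR-182 are abundant in photoreceptors and sensory cells, miR-124 in neurons, and miR-9 in neurons and Mueller glia. miR-204 with its relative miR-211 is abundant in the pigment epithelium and inner retina.

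Mature arms of the miRNAs that the results turn on are printed below from RefSeq (GRCm38.p6), with the seed in capitals. Each deposited row stands for a locus, so a value may come from either arm or both. The first 3 show the cluster of photoreceptor miRNAs, whose hairpins lie within 3820 bases of chromosome 6 outside any annotated gene on their strand (mir-182 at chr6:30165918-30165992, minus strand). The 5p arms share the letters UGGCA at positions 3 to 7.
miR-183-5p: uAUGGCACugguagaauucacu
miR-96-5p: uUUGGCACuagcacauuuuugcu
miR-182-5p: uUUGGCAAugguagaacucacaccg
The next 2 share the seed AGGAGCU, and only the row of mir-28a was among the 3 smallest p-values.
miR-28a-5p: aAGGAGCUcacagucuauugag
miR-708-5p: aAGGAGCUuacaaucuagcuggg
The hairpins of the other 2 rows of the 3 smallest p-values overlap annotated exons of protein-coding genes, and the transcripts that hold these exons were not examined. The hairpin of mir-5114 (chr19:44303171-44303231, plus strand) overlaps an exon of Scd2, a fatty acid desaturase gene, and that of mir-7019 (chr4:138316132-138316200, minus strand) overlaps an exon of Pink1, a mitochondrial kinase gene.
miR-5114: aCUGGAGAcggaagcugcaaga
miR-7019-5p: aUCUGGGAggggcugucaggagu
miR-7019-3p: uCACCUUGgccgccucucugcag
let-7d, whose row had the smallest p among let-7 rows, has the seed GAGGUAG in common with 9 other tested rows for which a mature sequence was found.
let-7d-5p: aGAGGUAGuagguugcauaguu

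Mature miRNA reads per library, from the authors' alignment table, ran from 6980992 to 12782700 over the 8 libraries. Levels are given as CPM, the count of a row scaled to the same total of these reads in each library. Of 903 mature rows, 334 reached 10 counts in at least 3 of the 8 libraries. Of these, 43 stood at both a low and a high level among the 23 libraries of the series and were set aside, which left 291 rows. In the 8 libraries alone the same rule would set aside 33 of the 43, and 4 of the 291. Retinal miRNAs were present in all 8 libraries, as the values of mir-183 below show. The library of uninjected mouse 2 stood apart: it had the lowest level of every row of the miR-183 cluster and of miR-124 and miR-9 among the 8 libraries, and an rRNA share of 5.14% of aligned reads. Both libraries of uninjected mouse 3 also had an rRNA share above 2% (3.83% and 3.00%), while the other 5 lay between 0.319% and 0.875%. Values without these libraries are given beside many of the results, and leaving out all 3 leaves uninjected mouse 1 alone as the control.

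No miRNA row passed the threshold between human gRHO and uninjected retinas after adjustment. In edgeR's quasi-likelihood test, 0 of 291 rows (0%) passed an adjusted p of 0.05, and the smallest adjusted p was 0.861. An unadjusted p under 0.05 was found for 14 rows (4.81%), 2 higher (0.687%) and 12 lower (4.12%) in human gRHO. About that share of rows passes such a threshold when no row differs. DESeq2 called 0 rows (0%), with 12 (4.12%) at an unadjusted p under 0.05. The count of 14 was lower with mice left out. In edgeR it was 5 (1.72%) without uninjected mouse 2 and 6 (2.06%) without human gRHO mouse 2, each of which is 1 library. It was 5 (1.72%) without human gRHO mouse 1 and 2 (0.687%) without the rRNA-rich libraries. Leaving out a human gRHO mouse or the rRNA-rich libraries leaves 1 mouse in a group. Fewer mice also leave less power, so these counts cannot show whether the 14 rested on single libraries. With only the 2 groups in the fit the count was 20 (6.87%), and the smallest adjusted p was 0.103. Log2 fold changes (human gRHO over uninjected) were above 0 for 110 rows (37.8%) and below 0 for 181 (62.2%), with a median of -0.13. This split moved with the scale: 151 rows (51.9%) were above 0 with TMM factors (median 0.028), 179 (61.5%) with total reads as the scale (median 0.12), and 80 (27.5%) with the totals of the mature rows (median -0.33). Directions below are therefore to be read against these medians. The totals of the mature rows, 873460 to 2097831 reads over the 8 libraries, include the rows set aside. Of those, mir-1a-2 alone ran from 2 to 984970 reads, which limits that last scale. The median standard error was 0.34 for the 126 rows of at least 10 CPM and 0.63 for the 165 rows below that level. With 2 against 3 mice, changes well above these errors could also go uncalled. The row of mir-28a, at -0.99 (SE 0.33), had an edgeR adjusted p of 0.861.

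**Figure D1:**
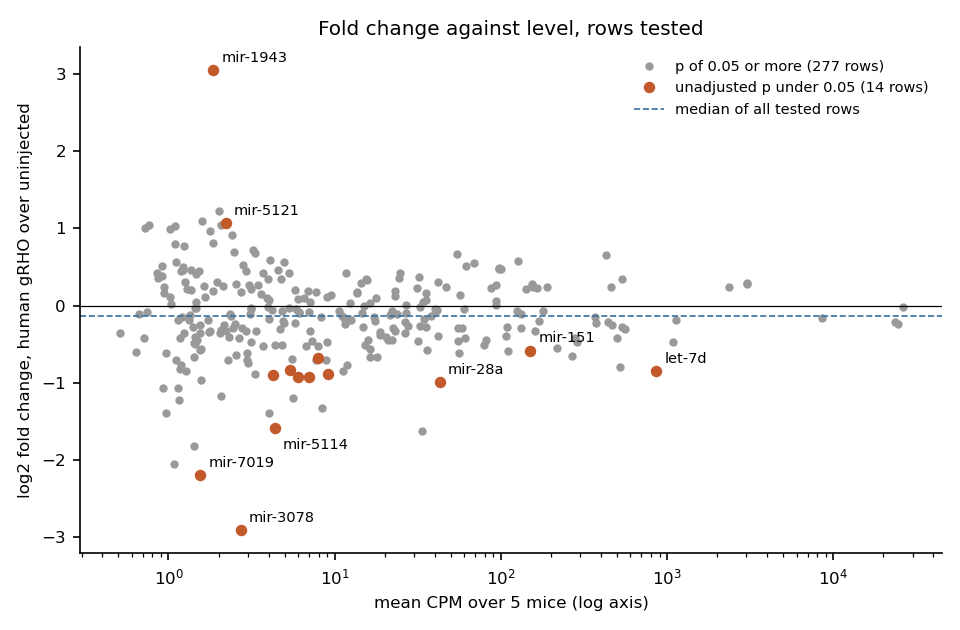
Log2 fold change of human gRHO over uninjected (vertical axis) against the mean CPM over 5 mice (horizontal log axis), 1 point per tested row. The 14 rows with an unadjusted p under 0.05 are in orange and most lie under 10 CPM; the dashed line is the median of all rows, -0.13.

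Libraries are listed in 1 order throughout: uninjected mouse 1 right and left, mouse 2 left, mouse 3 right and left, then human gRHO mouse 1 left and right, and mouse 2 left. The row of mir-28a, whose locus lies on chromosome 16, was at 32.8, 54.1, 65.03, 63.9 and 40.98 CPM in the uninjected retinas and at 29.9, 38.2 and 19.7 CPM in the human gRHO retinas. The human gRHO values were low, but the right retina of uninjected mouse 1 lay below the right retina of human gRHO mouse 1, so the libraries overlapped while the mouse sums did not. Mean levels were 26.9 ± 10.2 CPM (SD, n = 2) in human gRHO and 53.5 ± 10.97 CPM (SD, n = 3) in uninjected mice, and the log2 fold change was -0.99 (SE 0.33, edgeR adjusted p = 0.861), with a 95% interval from -1.69 to -0.29 before adjustment. The row of mir-708, which shares its seed, was at 95.4, 85.2, 70.9, 136 and 98.95 CPM in the uninjected retinas and at 87.7, 87.1 and 99.6 CPM in the human gRHO retinas, with a log2 fold change of 0.0097 (SE 0.27); its groups overlapped fully. The row of mir-5114 was at 3.44, 3.996, 6.30, 8.70 and 6.85 CPM in the uninjected retinas and at 1.44, 1.87 and 2.32 CPM in the human gRHO retinas. All 3 human gRHO libraries lay below all 5 uninjected ones, and the log2 fold change was -1.58 (SE 0.53, edgeR adjusted p = 0.861). The row of mir-7019 was at 0.391, 5.63, 2.01, 2.77 and 1.01 CPM in the uninjected retinas and at 1.08, 0.357 and 0.202 CPM in the human gRHO retinas, from 2 to 69 reads a library, and its libraries overlapped. Its log2 fold change was -2.20 (SE 0.73, edgeR adjusted p = 0.861). Without the rRNA-rich libraries the log2 fold changes were -0.68 for mir-28a, -0.91 for mir-5114 and -2.57 for mir-7019. Leaving out human gRHO mouse 2 moved mir-28a to -0.65, and leaving out human gRHO mouse 1 moved mir-7019 to -3.46.

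Only 2 of the 14 rows were higher in human gRHO. They and the other rows under 10 CPM in this paragraph were picked once their values were known. A locus within an intron of Tmem184b, mir-1943, was at 0.548, 0.0815, 0.716, 0.659 and 0.254 CPM in the uninjected retinas and at 3.69, 4.81 and 3.53 CPM in the human gRHO retinas. The human gRHO libraries had 35 to 54 reads and the uninjected ones 1 to 7, so all 3 lay above all 5. The log2 fold change was 3.05 (SE 1.24) and the adjusted p 0.937 by edgeR. The 7 mouse gRho mice ranged from 0.235 to 5.89 CPM, so the highest of them exceeded the human gRHO libraries. Their median, 0.506 CPM, lay within the range of the uninjected libraries. The saline mouse, at 1.76 CPM, lay between the human gRHO and the uninjected libraries. The hairpin of mir-5121 lies in the ribosomal protein gene Rpl13a and in Gm45713, and overlaps an annotated exon. Its row was at 1.96, 1.22, 1.15, 2.51 and 1.14 CPM in the uninjected retinas and at 3.33, 2.94 and 3.33 CPM in the human gRHO retinas. The libraries again did not overlap between the groups, and the log2 fold change was 1.07 (SE 0.48). The lower rows under 10 CPM were mir-296 at -0.88 (SE 0.36), mir-450b at -0.92 (SE 0.40), mir-7688 at -0.90 (SE 0.39), mir-5113 at -0.92 (SE 0.42), mir-467d at -0.83 (SE 0.39), mir-32 at -0.68 (SE 0.32) and mir-3078 at -2.91 (SE 1.36) on the log2 scale. Of these 7, the libraries of mir-450b, mir-7688, mir-467d and mir-32 did not overlap between the groups. The row of mir-3078 was at 1.17, 0.815, 5.16, 12.7 and 0.254 CPM in the uninjected retinas and at 0.630, 0.357 and 0.605 CPM in the human gRHO retinas, with uninjected mouse 2 and the right retina of uninjected mouse 3 above all others and the other 3 uninjected retinas near the human gRHO values. Without the rRNA-rich libraries, which include both of the high ones, it stood at -0.87. In the same setting mir-5113 stood at 0.025, mir-467d at -0.15 and mir-296 at -0.38, while mir-1943 stood at 3.58 and mir-5121 at 1.01.

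Over all rows, the human gRHO libraries lay wholly above the uninjected ones for 4 rows (1.37%) and wholly below for 13 (4.47%). Over mouse sums, the groups did not overlap for 28 rows (9.62%) with human gRHO above and 52 rows (17.9%) with human gRHO below. With 2 against 3 mice, sums often separate when no row differs, and libraries of 1 mouse are not independent. Separation alone therefore does not show a difference.

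**Figure D2:**
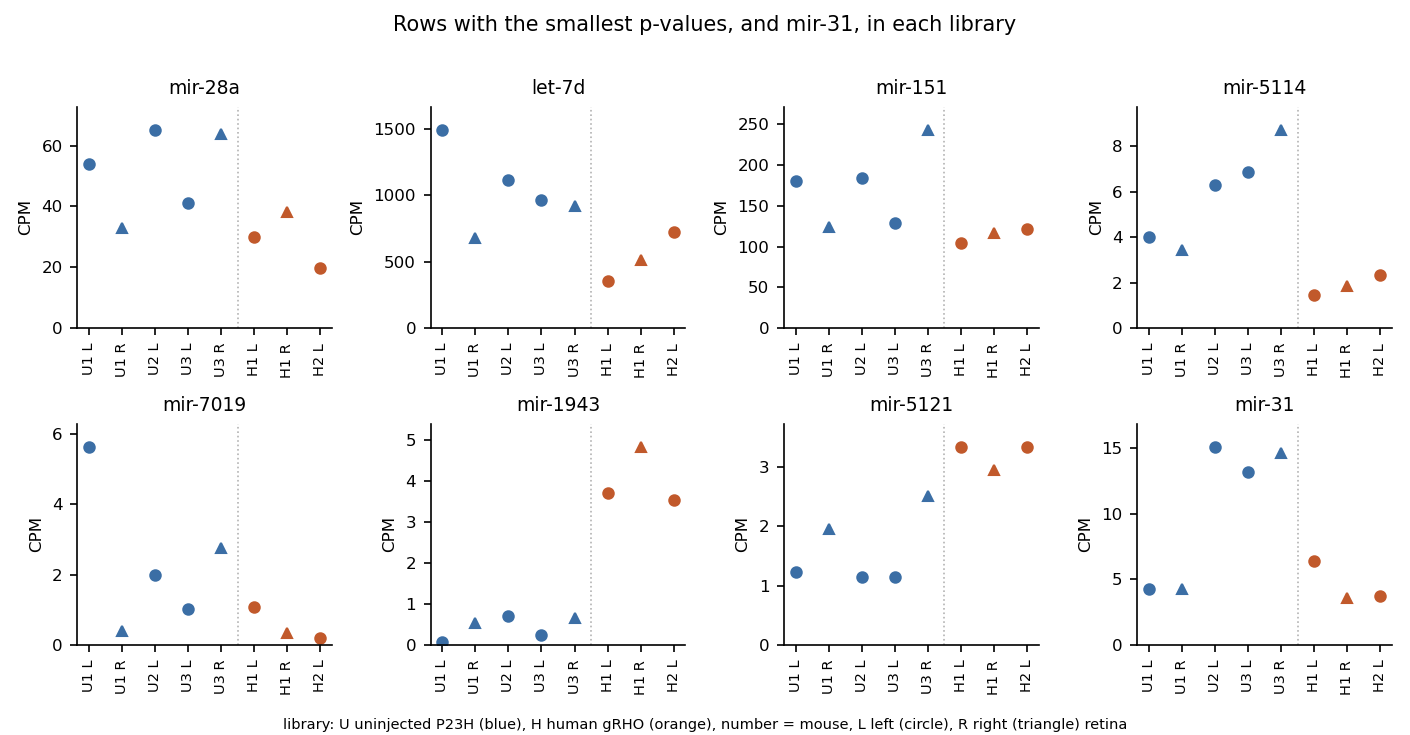
CPM (vertical axis, from 0) of 8 rows in each library: uninjected P23H in blue and human gRHO in orange, circles for left and triangles for right retinas. mir-5114, mir-151, mir-1943 and mir-5121 have no overlap between the groups, while the human gRHO libraries of mir-31 lie beside those of uninjected mouse 1.

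Among rows of at least 10 CPM, the 8 lower rows with the smallest p were mir-28a, let-7d, mir-151, mir-374b, mir-23b, mir-23a, mir-125b-2 and mir-19b-2. The row of let-7d, 1 of the let-7 family that restrains proliferation in differentiated cells, was at 677, 1491, 1118, 921 and 964 CPM in the uninjected retinas and at 357, 516 and 727 CPM in the human gRHO retinas. Uninjected mouse 1 spread widely between its eyes, and its right retina fell among the human gRHO values. Its log2 fold change was -0.85 (SE 0.39, edgeR adjusted p = 0.937). The row of mir-151 was at 124, 180.4, 184, 242.6 and 129.5 CPM in the uninjected retinas and at 105, 117 and 121 CPM in the human gRHO retinas, without overlap, and its log2 fold change was -0.58 (SE 0.27, edgeR adjusted p = 0.937). The rows of mir-23b and mir-23a, from clusters on chromosomes 13 and 8 with the same order of miR-23, miR-27 and miR-24, were also lower without overlap. mir-23b was at 18.7, 19.98, 19.1, 20.04 and 17.8 CPM in the uninjected retinas and at 9.72, 15.3 and 11.6 CPM in the human gRHO retinas, and mir-23a at 15.3, 21.2, 20.8, 30.2 and 17.8 CPM in the uninjected retinas and at 11.2, 12.1 and 14.8 CPM in the human gRHO retinas. Their log2 fold changes were -0.66 (SE 0.36) and -0.66 (SE 0.38), and all 6 rows of the clusters were below 0, between -0.66 and -0.052. mir-125b-2 stood at -0.45 (SE 0.27), mir-374b at -0.76 (SE 0.37) and mir-19b-2 at -0.59 (SE 0.35). Leaving out the rRNA-rich libraries, let-7d stood at -0.89, mir-151 at -0.39, mir-23b at -0.68, mir-23a at -0.46 and mir-125b-2 at -0.30, and mir-19b-2 turned to 0.16.

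The 8 higher rows of at least 10 CPM with the smallest p were mir-7a-1, mir-369, mir-96, mir-183, mir-330, mir-182, mir-136 and mir-190b, and the smallest p among them was 0.179 before adjustment, for mir-7a-1 at 0.52 (SE 0.37) on the log2 scale. The row of mir-369, of the imprinted Dlk1-Dio3 cluster on chromosome 12, was at 73.1, 69.1, 34.95, 65.3 and 69.5 CPM in the uninjected retinas and at 88.2, 84.97 and 82.7 CPM in the human gRHO retinas. All 3 human gRHO libraries lay above all 5 uninjected ones, and uninjected mouse 2 was far below the rest. The log2 fold change was 0.55 (SE 0.40). mir-330 stood at 0.31 (SE 0.28), mir-136 at 0.43 (SE 0.40) and mir-190b at 0.42 (SE 0.40), with overlapping libraries in each. The 6 tested rows of the highest mean CPM had log2 fold changes from -0.24 to 0.29, beside a median of -0.13 for all rows. They were let-7a-1 at -0.016 (SE 0.20), mir-30a at -0.24 (SE 0.23), let-7c-2 at -0.21 (SE 0.23), mir-30e at -0.16 (SE 0.22), mir-9-2 at 0.29 (SE 0.32) and mir-9-1 at 0.28 (SE 0.32). Both copies of miR-9 among them lay above the upper quartile of all rows, 0.23.

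The 3 rows of the photoreceptor cluster miR-183, miR-96 and miR-182 had log2 fold changes above 0 and none passed the test (0 of 3, against 0% of all rows). mir-183 was at 561, 392, 138, 461 and 401 CPM in the uninjected retinas and at 494, 531 and 588 CPM in the human gRHO retinas. Mouse means were 550.3 ± 53.5 CPM (SD, n = 2) in human gRHO and 349 ± 184 CPM (SD, n = 3) in uninjected mice, and the log2 fold change was 0.66 (SE 0.56, edgeR adjusted p = 0.937). mir-182 was at 163, 130, 43.5, 136 and 116 CPM in the uninjected retinas and at 145, 173 and 158 CPM in the human gRHO retinas, and its log2 fold change was 0.58 (SE 0.54, edgeR adjusted p = 0.937). mir-96 was at 81.1, 60.1, 17.3, 37.6 and 47.7 CPM in the uninjected retinas and at 59.7, 69.1 and 75.5 CPM in the human gRHO retinas, and its log2 fold change was 0.67 (SE 0.54, edgeR adjusted p = 0.937). In each row the human gRHO libraries lay within or near the range of uninjected mice 1 and 3, and uninjected mouse 2 lay far below all others. The median of the 3 rows was 0.66 with all 5 mice, beside -0.13 for all rows, 0.28 without uninjected mouse 2 and 0.11 without the rRNA-rich libraries. In RNA of whole retinas, fewer cells of a type and less RNA per cell cannot be told apart.

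The rows of miR-124 and miR-9 followed the same library. mir-124-1 was at 129, 105, 32.5, 129 and 89.2 CPM in the uninjected retinas and at 110.1, 131 and 119 CPM in the human gRHO retinas, with a log2 fold change of 0.47 (SE 0.47). mir-9-2 was at 3645, 3597, 1591, 3355 and 2883 CPM in the uninjected retinas and at 3086, 3325 and 3575 CPM in the human gRHO retinas, with a log2 fold change of 0.29 (SE 0.32). The copies mir-124-2 and mir-124-3 stood at 0.47 (SE 0.46) and 0.49 (SE 0.47), and mir-9-1 and mir-9-3 at 0.28 (SE 0.32) and 0.24 (SE 0.30). Copies of 1 miRNA can share reads, so these 6 rows are not 6 measurements. The median was 0.38 with all mice, 0.047 without uninjected mouse 2 and -0.040 without the rRNA-rich libraries, with 4 of 6 rows above 0 without uninjected mouse 2 and 0 of 6 passing the test.

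**Figure D3:**
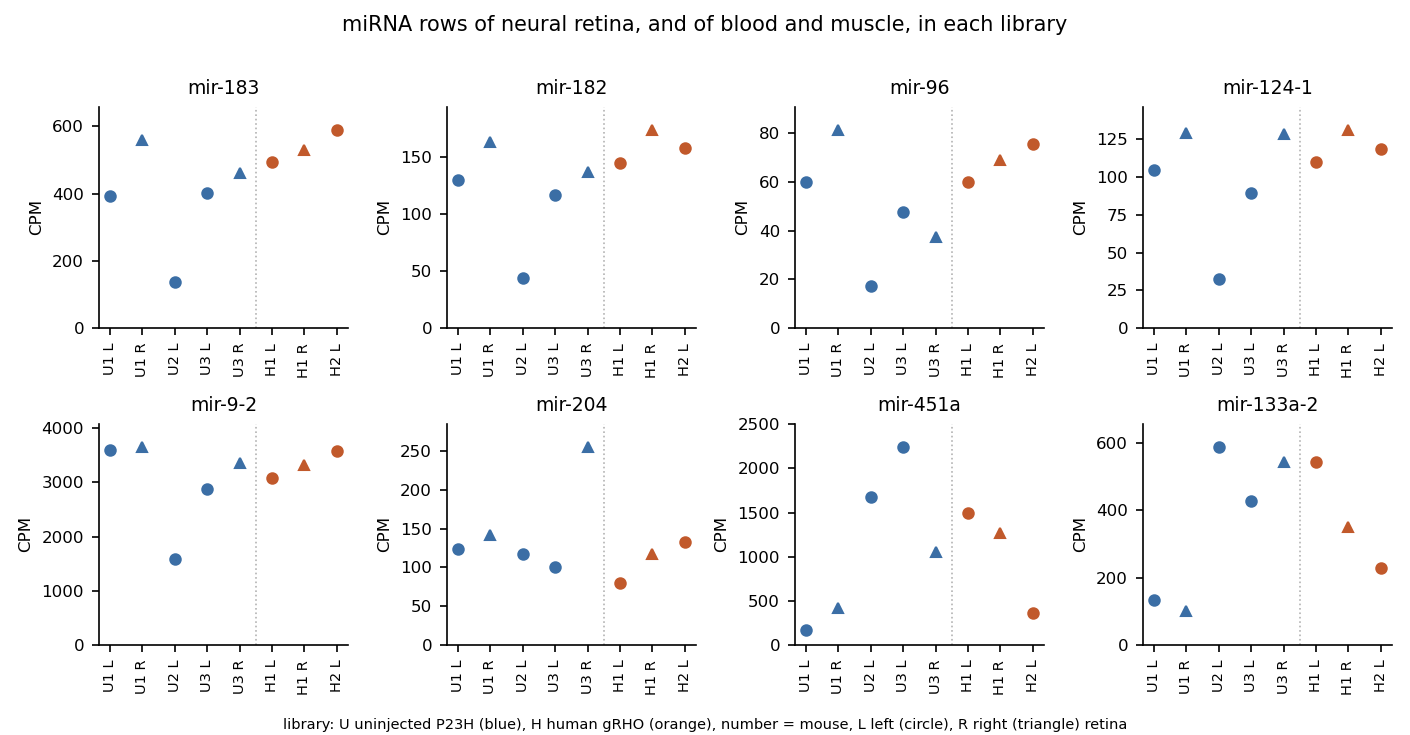
CPM (vertical axis, from 0) of rows of the neural retina (the miR-183 cluster, mir-124-1, mir-9-2 and mir-204) and of blood and muscle (mir-451a, mir-133a-2) in each library, uninjected P23H in blue and human gRHO in orange, circles for left and triangles for right retinas. Uninjected mouse 2 is the lowest library in the first 5 panels, and the human gRHO libraries lie beside uninjected mice 1 and 3.

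The tested rows of blood and muscle moved with the mice and not with the groups. Both tested muscle rows are copies of miR-133a, which can share reads, and 3 of the 10 muscle loci were set aside. Of the rows set aside, mir-206 had 20427 and 2 reads in the right and left retinas of uninjected mouse 1, and mir-1a-2 also jumped between eyes. The row of mir-1a-1 had no such jump in the 8 libraries. The red blood cell row mir-451a was at 422, 176, 1679, 1053 and 2238 CPM in the uninjected retinas and at 1495, 1265 and 368 CPM in the human gRHO retinas, and the muscle row mir-133a-2 at 99.7, 132, 586, 543 and 426 CPM in the uninjected retinas and at 542, 351 and 229 CPM in the human gRHO retinas. Uninjected mouse 1 was low in both, and the other uninjected libraries and human gRHO mouse 1 were high. The 2 tested rows of red blood cells summed to 432, 182, 1723, 1078 and 2285 CPM in the uninjected retinas and 1532, 1295 and 379 CPM in the human gRHO retinas, and the 2 of muscle to 206, 262, 1149, 1073 and 851 CPM in the uninjected retinas and 1089, 706 and 472 CPM in the human gRHO retinas. Their medians were -0.41 and -0.19 with all mice, and 1.52 and 1.55 without the rRNA-rich libraries. The part of these cells in the retinal rows was not tested.

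miR-204 and miR-211, which share the seed UCCCUUU and lie in introns of Trpm3 and Trpm1, overlapped between the groups. mir-204 was at 142, 123, 117, 255 and 99.97 CPM in the uninjected retinas and at 79.5, 118 and 133 CPM in the human gRHO retinas, with 1 uninjected retina far above the rest, and mir-211 at 28.8, 24.6, 17.05, 43.6 and 15.2 CPM in the uninjected retinas and at 18, 24.6 and 24.02 CPM in the human gRHO retinas. Their log2 fold changes were -0.29 (SE 0.36) and -0.11 (SE 0.35). The miR-181 family, which acts in retinal neurons and blood cells, was split by genomic copy. The copies on chromosome 1 were above 0 (mir-181a-1 at 0.24 (SE 0.36), mir-181b-1 at 0.18 (SE 0.39)) and those on chromosome 2 below (mir-181a-2 at -0.65 (SE 0.44), mir-181b-2 at -0.70 (SE 0.55)), although miR-181a-5p has the same letters at both. mir-181a-1 was at 162, 184, 88.1, 197 and 148 CPM in the uninjected retinas and at 152, 180.4 and 175 CPM in the human gRHO retinas, and mir-181a-2 at 197, 197, 379, 427 and 304 CPM in the uninjected retinas and at 159, 169.8 and 235 CPM in the human gRHO retinas. Uninjected mouse 2 was the lowest library in the first and the second highest in the other, so the difference between the copies was greatest in that library. All 4 of these copies changed sign without the rRNA-rich libraries: mir-181a-1 at -0.014, mir-181b-1 at -0.18, mir-181a-2 at 0.021 and mir-181b-2 at 0.028. mir-181c stood at 0.10 (SE 0.43). The activity-regulated pair mir-132 and mir-212 stood at 0.27 (SE 0.36) and 0.12 (SE 0.38), again with uninjected mouse 2 lowest: mir-132 was at 109, 94.8, 39.5, 135 and 99.3 CPM in the uninjected retinas and at 98.5, 92.6 and 112 CPM in the human gRHO retinas. Over the 6 tested activity-regulated rows the median was -0.026, and mir-134 had the smallest p at 1.01 (SE 0.68).

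All 5 tested rows of immune cells were below 0, beside 62.2% of all rows, and none passed the test. Their median was -0.42, beside -0.13 for all rows. The other 2 of the 7 loci, mir-155 and mir-146a, were set aside. mir-146a was at 0.235, 421, 373, 521 and 457 CPM in the uninjected retinas and at 388, 751 and 0.101 CPM in the human gRHO retinas. mir-142a, expressed in cells of blood origin including microglia, was at 38.4, 30.3, 42.1, 46.4 and 49.5 CPM in the uninjected retinas and at 35, 41.4 and 17.2 CPM in the human gRHO retinas. The left retina of human gRHO mouse 2 was the lowest, and human gRHO mouse 1 lay within the uninjected range. The log2 fold changes were -0.58 (SE 0.37) for mir-142a, -0.33 (SE 0.44) for mir-223, -0.42 (SE 0.70) for mir-146b, -0.48 (SE 0.79) for mir-150 and -0.10 (SE 0.54) for mir-21a. The median moved with single mice: it was -0.12 without human gRHO mouse 2 (1 library), -0.95 without human gRHO mouse 1 and -0.21 without uninjected mouse 2. mir-150 turned to 1.10 and mir-21a to 0.0061 without the rRNA-rich libraries. The 5 rows summed to 48.3, 37.5, 52, 54.5 and 58.7 CPM in the uninjected retinas and 41.3, 51.6 and 23.3 CPM in the human gRHO retinas. miRNAs reported to be higher in degenerating retina could be tested in 4 of 8 loci, 2 of which are the muscle rows and 2 the immune rows named above. Their median was -0.19, and 0.78 without the rRNA-rich libraries.

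Of 10 tested rows of Mueller glia, the supporting glia of the retina, 3 were above 0 and 7 below, beside 62.2% of all rows below 0. Their median was -0.35, and the 3 above were the copies of miR-9. Endothelial and mural rows had 2 of 6 above 0 and a median of -0.18, with the smallest p for mir-222 at -0.52 (SE 0.42). That median turned to 0.092 with 4 of 6 rows above 0 without uninjected mouse 2 (1 library), and to 0.13 without the rRNA-rich libraries. Rows of surface epithelium, lens and cornea had 2 of 7 above 0 and a median of -0.33, or -0.043 without human gRHO mouse 2. Among them mir-31, an epithelial miRNA, was at 4.30, 4.24, 15.04, 14.6 and 13.2 CPM in the uninjected retinas and at 6.39, 3.57 and 3.73 CPM in the human gRHO retinas. Uninjected mice 2 and 3 were high and uninjected mouse 1 lay within the human gRHO range, with a log2 fold change of -1.33 (SE 0.66), or 0.032 without the rRNA-rich libraries. The single tested liver row, mir-194-2, stood at -0.13 (SE 0.62), and at -0.61 without the rRNA-rich libraries.

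Of the families defined by sequence or genome position, the let-7 family had 4 of 11 rows above 0 (median -0.091), the miR-29 family 1 of 4 (median -0.051, mir-29c at 0.13 (SE 0.27)) and the growth-associated miR-17/92 clusters 2 of 10 (median -0.41). The miR-17/92 median turned to 0.13 without the rRNA-rich libraries, and was -0.70 without human gRHO mouse 1 and -0.12 without uninjected mouse 3. In these clusters mir-20b, the highest at 0.97 (SE 1.49), was at 0.156, 3.51, 0.286, 3.43 and 0.127 CPM in the uninjected retinas and at 4.77, 4.64 and 0.404 CPM in the human gRHO retinas, so it moved between a low and a high level within both groups, and it is 1 of the 4 tested rows that the two-level rule would set aside in the 8 libraries alone; the others are mir-1224, mir-539 and mir-653. The Dlk1-Dio3 cluster, a maternally expressed run of neuronal miRNAs on chromosome 12, had 23 of 30 tested rows above 0 and a median of 0.26, beside 37.8% and -0.13 for all rows. Its smallest p was that of mir-381, at 1.41, 1.39, 0.716, 1.98 and 1.52 CPM in the uninjected retinas and at 4.95, 1.96 and 2.72 CPM in the human gRHO retinas, with a log2 fold change of 1.22 (SE 0.76). Uninjected mouse 2 had the lowest summed level of the cluster: the 30 rows summed to 875, 991, 574, 1089 and 841 CPM in the uninjected retinas and 960.5, 947 and 1004 CPM in the human gRHO retinas. Without that mouse 17 of 30 rows were above 0, beside 99 of all 291 rows (34%), and the median was 0.021. Over the 17 lists, no row had an adjusted p under 0.05, and 1 row, let-7d, had an unadjusted p under 0.05.

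**Figure D4:**
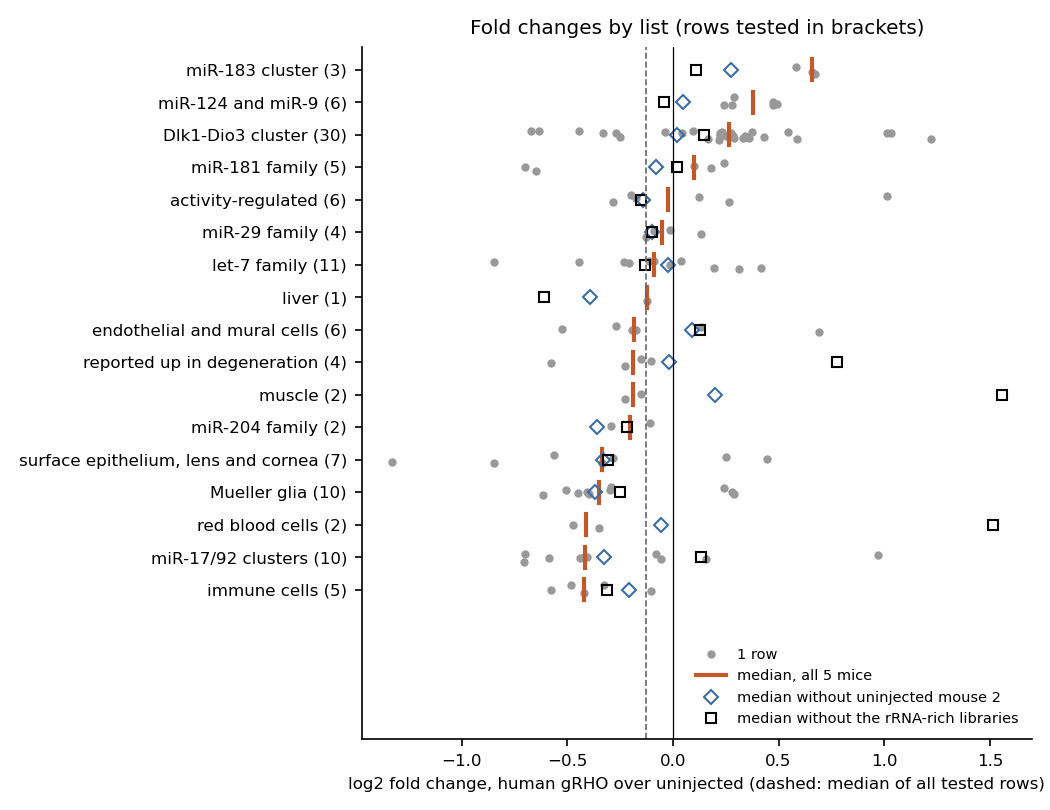
Log2 fold changes of human gRHO over uninjected (horizontal axis) for the tested rows of each list (vertical axis), with the median of all mice as an orange bar and the medians without uninjected mouse 2 (blue diamonds) and without the rRNA-rich libraries (black squares). The miR-183 cluster has the highest median, 0.66, and moves to 0.28 and 0.11 in these; red blood cells and muscle move from below 0 to above 1.5.

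Genomic neighbours were grouped to see on which side of 0 they lay. Of 291 tested rows, 242 matched a RefSeq hairpin. Those within 10000 bases of each other formed 31 clusters, 22 of which had all rows on 1 side of 0. Among clusters of 3 or more rows this held for 4 of 9, so most of the 22 were pairs. Of all rows, 62.2% were below 0, so unrelated neighbours would also often share a side. Reads of neighbours come from 1 primary transcript in many clusters, and the median of all rows is itself below 0, so these are a description. mir-34b and mir-34c, which respond to p53 in many tissues and lie 612 bases apart in span on chromosome 9, stood at -1.17 (SE 0.64) and -1.39 (SE 0.73). mir-34c was at 2.97, 1.79, 5.87, 8.44 and 7.36 CPM in the uninjected retinas and at 3.06, 2.32 and 1.31 CPM in the human gRHO retinas, with uninjected mice 2 and 3 high and uninjected mouse 1 within the human gRHO range. The pair stood at -0.49 and -0.24 without the rRNA-rich libraries. This pair was picked once its values were known.

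The human gRHO mice were also set against the other injected P23H mice, as a view of injection and of the construct. In edgeR, 0 of 291 rows (0%) passed against mouse gRho, with 1 row (0.344%) at an unadjusted p under 0.05 and a smallest adjusted p of 0.999. Against saline 0 of 291 (0%) passed, with 3 rows (1.03%) at an unadjusted p under 0.05 and a smallest adjusted p of 0.996; saline was 1 mouse, which is assumed to vary like the others. The median standard errors were 0.41 and 0.63. The 1 row against mouse gRho was mir-7019, at -1.86 (SE 0.68). The saline mouse had 0.279 CPM of mir-7019, within the human gRHO libraries.

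The comparisons of each injected group with uninjected mice share the uninjected mice, so their values are only set side by side. For mir-28a they were -0.99 (SE 0.33) for human gRHO, -0.89 (SE 0.23) for mouse gRho and -1.22 (SE 0.44) for saline, and human gRHO differed from mouse gRho by -0.10, with a 95% interval from -0.70 to 0.50. The 7 mouse gRho mice ranged from 19.1 to 40.5 CPM of mir-28a and the saline mouse was at 22.9 CPM. For mir-183 the values were 0.66, 0.16 and 0.48, and human gRHO differed from mouse gRho by 0.50, with an interval from -0.53 to 1.52. Wild-type retinas were at 746 and 158 CPM of mir-183. That span holds all 3 human gRHO libraries and every uninjected library except that of uninjected mouse 2. The same wild-type retinas were at 34.8 and 26.2 CPM of mir-28a.

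The distance between 2 mice was taken as the median absolute log2 difference over the 291 rows. The 2 human gRHO mice were 0.30 apart. Uninjected mouse 1 was 0.27 and 0.28 from human gRHO mice 1 and 2, and farther from its own group, at 0.49 from uninjected mouse 2 and 0.33 from uninjected mouse 3. Uninjected mouse 2 was 0.56 and 0.67 from the human gRHO mice. The eyes of 1 mouse were 0.26 apart in human gRHO mouse 1, 0.29 in uninjected mouse 1 and 0.49 in uninjected mouse 3. These 3 distances are between single libraries, while those between mice use the sum of both eyes where both were sequenced, so the measures are unlike. Every pair of the 8 libraries differed by more than counting error, with a chi-square of at least 27.9 per degree of freedom, and none was counted as a repeat.

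**Figure D5:**
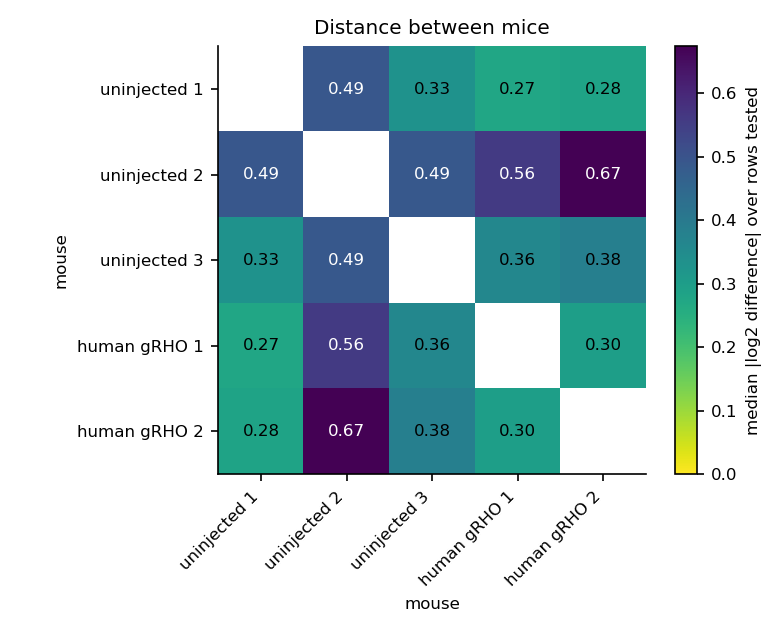
Median absolute log2 difference over 291 rows between each pair of the 5 mice (rows and columns), darker for larger. Uninjected mouse 1 lies nearer to both human gRHO mice (0.27 and 0.28) than to either other uninjected mouse (0.49 and 0.33).

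The classes of reads in the alignment table were compared over mice with a two-sided exact permutation test, in which 2 against 3 mice cannot give a p below 0.2. Mature miRNA took 83.4 ± 0.857% (SD, n = 2) of aligned reads in human gRHO and 77.1 ± 6.89% (SD, n = 3) in uninjected mice (exact p = 0.6). The share of rRNA was 0.395, 0.319, 5.14, 3.83 and 3.002% in the uninjected retinas and 0.682, 0.531 and 0.875% in the human gRHO retinas (exact permutation p = 0.6). The shares of tRNA and rRNA were high in the same libraries, those of uninjected mice 2 and 3: tRNA was 0.315, 0.252, 2.70, 2.30 and 3.30% in the uninjected retinas and 0.307, 0.313 and 0.368% in the human gRHO retinas. The groups did not overlap over mice in 4 of 16 classes. Human gRHO mice were higher in coding exon reads (0.0995% and 0.119%, against 0.0654%, 0.0703% and 0.0825%), in snRNA and in RNA without a coding sequence, and lower in reads of miRNA loops. Each of these had the smallest possible exact permutation p, 0.2, and an adjusted p of 0.711.

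Among the 43 rows set aside, 33 jumped within the 8 libraries, and some of these are abundant miRNAs. mir-155, an immune miRNA, had 1924, 1866, 982, 763 and 854 reads in the uninjected libraries and 1, 3 and 967 in the human gRHO libraries, so both eyes of human gRHO mouse 1 were near 0 and mouse 2 was not. mir-598 had 4376 and 4767 reads in the retinas of human gRHO mouse 1 and 4 in mouse 2, with 1352 in uninjected mouse 2 and 1 to 7 in the other uninjected libraries. The muscle row mir-1a-2 had 219101, 265983, 3, 250485 and 2 reads in the uninjected libraries and 984970, 3 and 380518 in the human gRHO libraries, where the eyes of mouse 1 stood at opposite levels. No fold change is given for such rows. The jumps of mir-1983 followed mice: it had 7204, 6766 and 16287 reads in the libraries of uninjected mice 2 and 3, and 67 to 156 in the other 5. The other 10 rows set aside had no such jump in the 8 libraries and met the rule when the libraries of the other groups were counted in. With the rule applied to the 8 libraries alone, an alternative chosen after seeing the data, they could be tested: 7 were below 0 and none had an unadjusted p under 0.05 in edgeR. In mir-574 all 3 human gRHO libraries lay below all 5 uninjected ones: it was at 263, 274, 341, 291 and 242.6 CPM in the uninjected retinas and at 165, 197 and 198 CPM in the human gRHO retinas, with a log2 fold change of -0.62 (SE 1.08, edgeR adjusted p = 0.948). That standard error also holds the spread within the other groups of the fit. In mir-194-1 the groups overlapped, at 60.2, 59.3, 63.03, 72.9 and 72.6 CPM in the uninjected retinas and at 64.1, 66.6 and 66.5 CPM in the human gRHO retinas, and the log2 fold change was 0.016 (SE 0.30). Rows named in these sentences were picked once their values were known.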

How the data were processed

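The deposited tables hold raw read counts, per the file headers: 1 by miRNA locus and class, and 1 by class of alignment. The sources used here give no aligner, counting program, annotation or build. The submitters' processing notes name DESeq2. Per the labels' protocols, Trizol was used for extraction and a NEXTflex small RNA kit for the libraries. In the 8 libraries the mature rows summed to only 11.0% to 18.9% of the mature miRNA class of that table. 0 columns were left unused.

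Eyes of 1 mouse were summed, and counts of 15 mice in 5 groups were tested in 1 fit with edgeR 4.0.16 (quasi-likelihood, robust; R 4.3.3), with the mature miRNA reads as library size and Benjamini-Hochberg adjustment over 291 rows. Rows were set aside as two-level where any of the 23 libraries reached 30 counts and sorted log2(CPM + 0.5) values left a gap of 3.5 or more, or of 2 or more between sets of 2 or more libraries; closer jumps go unseen. Intervals use the t distribution and the fit's degrees of freedom. The script was tested on simulated data. Alternatives were DESeq2 1.42.0, other scales and filters, other samples in the fit, single libraries or eyes, and leaving out mice. Named rows are the 3 smallest p-values (as none was called), the 8 higher and 8 lower rows of at least 10 CPM with the smallest p, the 6 highest, the tested retinal and immune rows, and the smallest p of each other list. The groups compared, the 17 lists, which share members, and the two-level rule were chosen with earlier results of these data known. Sequences and hairpins are from RefSeq (GRCm38.p6) and gene overlaps from GENCODE of the same assembly; hairpins were matched by name.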

Additional observations from a re-analysis of the deposited data

Results flagged for a closer look

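Of 66 values tested over the 5 uninjected libraries, 6 had 1 library far from the other 4, and chance flags about 1 in 20. The left retina of uninjected mouse 2 was at 35.0 CPM of mir-369, where the others were at 65.3 to 73.1 CPM. The other 5 were in the right retina of uninjected mouse 3. It was at 65.9 CPM of mir-330 (others 28.8 to 38.9), 7.38 CPM of mir-374b (others 14.0 to 16.6), 130.3 CPM of mir-125b-2 (others 74.9 to 90.6) and 254.7 CPM of mir-204 (others 99.97 to 141.6). Its share of aligned reads in introns was 0.241%, where the others were at 0.196% to 0.202%.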

How the results depend on the processing

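Rows called against uninjected mice numbered 0 under all 20 alternatives, 1 of which, the two-level rule on the 8 libraries alone (297 rows), was chosen after seeing the data. Leaving out human gRHO mouse 2 gave 1 call each against mouse gRho and against saline, mir-539, whose counts in the remaining human gRHO mouse were 1 read per library, so those counts ranged from 0 to 1. Against uninjected mice no named row passed the threshold under an alternative, and of 1253 named fold changes 1168 kept their direction. The other 85, none of them called, were on the opposite side of 0. With TMM factors these were let-7a-1 at 0.15, mir-30e at 0.0094, mir-211 at 0.059, mir-21a at 0.057 and mir-194-2 at 0.021. With total reads as the scale they were let-7a-1 at 0.22, mir-30a at 0.052, let-7c-2 at 0.027, mir-30e at 0.13, mir-211 at 0.12, mir-21a at 0.15, mir-133a-2 at 0.17 and mir-194-2 at 0.051. With the mature row totals they were mir-181b-1 at -0.0011, mir-181c at -0.092, mir-212 at -0.060, mir-29c at -0.066 and mir-708 at -0.18. With DESeq2 they were let-7a-1 at 0.082, mir-211 at 0.012 and mir-21a at 0.017. Each library as a sample gave mir-181c at -0.0091, mir-212 at -0.037, mir-133a-2 at 0.066, mir-708 at -0.089 and mir-539 at -0.20. Left retinas alone gave mir-211 at 0.14, mir-133a-2 at 0.015 and mir-539 at -0.32. Without the rRNA-rich libraries they were mir-96 at -0.018, mir-19b-2 at 0.16, mir-30a at 0.042, mir-30e at 0.16, mir-9-2 at -0.10, mir-9-1 at -0.11, mir-9-3 at -0.12, mir-181a-2 at 0.021, mir-181b-2 at 0.028, mir-181a-1 at -0.014, mir-181b-1 at -0.18, mir-150 at 1.10, mir-21a at 0.0061, mir-212 at -0.072, mir-451a at 1.53, mir-133a-2 at 1.55, mir-31 at 0.032 and mir-5113 at 0.025. Without the uninjected and the mouse gRho library lowest in the miR-183 cluster they were let-7a-1 at 0.040, mir-9-1 at -0.00045, mir-9-3 at -0.029, mir-181a-1 at -0.012, mir-181b-1 at -0.079, mir-181c at -0.040, mir-150 at 0.14, mir-132 at -0.075, mir-212 at -0.21, mir-133a-2 at 0.17, mir-29c at -0.019 and mir-708 at -0.15. Leaving out 1 mouse at a time gave ranges across 0 for these rows: let-7a-1 -0.18 to 0.11, mir-9-1 -0.00045 to 0.52, mir-211 -0.30 to 0.042, mir-9-3 -0.029 to 0.46, mir-181a-1 -0.012 to 0.39, mir-181b-1 -0.079 to 0.41, mir-181c -0.058 to 0.27, mir-150 -0.95 to 0.14, mir-21a -0.41 to 0.13, mir-132 -0.075 to 0.55, mir-212 -0.21 to 0.43, mir-451a -1.72 to 0.19, mir-133a-2 -0.79 to 0.18, mir-194-2 -0.39 to 0.24, mir-29c -0.019 to 0.43, mir-708 -0.15 to 0.21, mir-539 -4.83 to 1.31 and mir-20b -1.71 to 1.81. Under alternatives, 311 list medians moved by less than the SD between mice and 28 by more. The latter were, with TMM factors, let-7 family at 0.080 and miR-29 family at 0.11; with total reads, miR-181 family at 0.35, Mueller glia at -0.10, immune cells at -0.11, surface epithelium, lens and cornea at -0.081, let-7 family at 0.19, miR-29 family at 0.19 and miR-17/92 clusters at -0.12; with mature row totals, miR-181 family at -0.092, Mueller glia at -0.54, surface epithelium, lens and cornea at -0.53, let-7 family at -0.29 and miR-29 family at -0.25; with DESeq2, let-7 family at 0.032; and without the rRNA-rich libraries, reported up in degeneration at 0.78, endothelial and mural cells at 0.13, red blood cells at 1.52, muscle at 1.55, liver at -0.61 and miR-17/92 clusters at 0.13. Leaving out 1 mouse at a time gave medians of immune cells -0.95 to -0.12, surface epithelium, lens and cornea -0.53 to -0.043, let-7 family -0.18 to -0.024 and miR-17/92 clusters -0.70 to -0.12. The cause was not tested for any of these. With 2 against 3 mice and a median standard error of 0.47, the spread between mice limits what could be detected; rows under 10 CPM had a median standard error of 0.63.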
